A study of Schizosaccharomyces pombe with 4 samples.

Results

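In fission yeast, Schizosaccharomyces pombe, 41 protein-coding genes away from the ends of chromosomes I and II carried almost no sense RNA in wild-type cells (WT) and clearly more in cells with the spt6-1 allele. They were chosen by their measured values: a distance of at least 100 kb from the ends of chromosomes I and II, a sense level under 3 RPKM in both WT libraries, and at least 5 RPKM and at least 2 times the higher WT value in both spt6-1 libraries. RPKM is reads per kilobase of a feature scaled by a library denominator. Of 5134 protein-coding rows 5009 were internal in this sense, 236 of these were under 3 RPKM in both WT libraries, and the 41 are 17.4% of those 236. Rows outside chromosomes I and II count as internal wherever they lie. Only 4998 of the 5009, and 184 of the 195 silent internal genes not chosen, lie on chromosomes I, II or III. The sense values of all 4 libraries made the choice, so the sense levels below are a description and carry no test.

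The study sequenced poly(A) RNA strand by strand from prototrophic WT and spt6-1 strains, with 2 libraries of each. Both were cultured in YES, a rich medium, at 30 °C and then held at 37 °C for 2 h, so WT had the same heat shift as the mutant. No label says whether the 2 libraries of a strain came from separate cultures. The p-values set the difference between strains against the spread between these libraries, which may therefore be technical. In RNA from whole cultures, a higher level per cell and a larger share of cells that make the RNA cannot be told apart.

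Spt6 travels with RNA polymerase II and is a histone chaperone that puts nucleosomes back behind the polymerase. In yeasts, loss of its function is known to let RNA start inside genes and on the strand opposite to genes. Many fission yeast genes that serve meiosis, sporulation, mating or starvation are kept nearly off in rich medium, through regulated transcription, through removal of meiotic mRNA by the RNA exosome, and in places through heterochromatin.

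The spt6 mRNA itself was at 65.5 and 61.6 RPKM in WT and at 12.7 and 8.32 RPKM in spt6-1. The libraries held from 16894607 to 39693042 sense reads. For a feature of 1 kb a single read was worth 0.0278 to 0.0581 RPKM. Behind the WT values of the 41 genes lay at least 5 and at least 3 sense reads in replicates 1 and 2, with medians of 84 and 42, so the lowest WT levels rest on few reads. Ribosomal RNA took 3.73% to 17.8% of sense reads. The denominator of spt6-1 replicate 1, 27994342 reads, was smaller than its 31491860 sense reads on protein-coding rows, whereas in the other libraries the denominator was the larger number. With the denominator replaced by the protein-coding sense reads of each library, the same thresholds chose 34 genes.

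Of the 41 genes, 14 have symbols that start with mug, meu or mde, names given to genes that are induced in meiosis. Among all 236 silent internal genes 52 have such symbols. Forkhead sites for Mei4, the transcription factor of middle meiosis, are the best known element upstream of such genes, so the stretch of 250 bases before each annotated start was searched on both strands for GTAAACA. It occurred before 11 of the 41 genes (26.8%), before 25.0% of the other silent internal genes with a usable window, and before 14.5% of all 5122 protein-coding rows searched. All windows count here, whether or not another coding row lies in them. Of the 11 with a match, those of spn5, meu6, meu25, SPBC21D10.08c and mug137 overlap another coding row. The 4 windows shown here belong to meiotic genes, hold no other coding row and carry 1 to 3 such matches, which stand in capitals in either orientation. They were read from the RefSeq genome ASM294v3 by coordinates of the authors' table, whose build ASM294v2 has chromosomes I, II and III of the same lengths, and run 5′ to 3′ on the strand of the gene.

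meu7, chrII:4274666-4274915, minus strand: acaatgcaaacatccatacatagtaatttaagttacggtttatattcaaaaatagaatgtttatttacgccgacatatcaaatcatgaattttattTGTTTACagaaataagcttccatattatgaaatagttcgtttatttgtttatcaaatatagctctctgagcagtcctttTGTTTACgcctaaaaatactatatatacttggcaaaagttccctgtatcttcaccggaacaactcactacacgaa
meu14, chrII:4066044-4066293, plus strand: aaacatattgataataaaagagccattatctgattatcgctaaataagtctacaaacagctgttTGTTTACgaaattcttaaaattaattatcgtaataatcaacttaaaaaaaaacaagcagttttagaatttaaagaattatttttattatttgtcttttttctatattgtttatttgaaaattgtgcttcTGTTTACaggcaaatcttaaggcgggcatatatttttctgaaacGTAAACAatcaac
crp79, chrI:1794995-1795244, minus strand: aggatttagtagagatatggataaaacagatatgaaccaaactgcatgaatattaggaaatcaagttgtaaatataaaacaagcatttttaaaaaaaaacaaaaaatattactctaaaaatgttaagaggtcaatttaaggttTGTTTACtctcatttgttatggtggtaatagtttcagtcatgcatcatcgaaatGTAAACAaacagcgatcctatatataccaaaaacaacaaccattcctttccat
dmc1, chrI:3382024-3382273, plus strand: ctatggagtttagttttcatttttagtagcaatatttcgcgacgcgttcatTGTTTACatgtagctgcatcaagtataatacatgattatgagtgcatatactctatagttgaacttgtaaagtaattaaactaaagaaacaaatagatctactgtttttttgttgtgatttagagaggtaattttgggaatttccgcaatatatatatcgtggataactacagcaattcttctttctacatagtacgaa

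The last base of each line adjoins the annotated start. In meu14 the matches begin 186, 57 and 13 bases before it, in meu7 154 and 75, in crp79 107 and 53, and in dmc1 199. Other elements were searched in the same windows. TATAAA lay before 51.2% of the 41 genes, 37.0% of the other silent genes and 45.5% of all coding rows. CCAAT lay before 41.5%, 42.4% and 35.1% of them. CTTTGTT, the core of the box bound by Ste11, the regulator of mating and meiotic entry, was found before 2 of the 41 (4.88%), SPAC1002.20 and mfm3, before 10.9% of the other silent genes and before 8.98% of all coding rows. CCCCTC, the element of Rst2, a factor for genes repressed by glucose, lay before 3 of the 41 (7.32%), SPAC11D3.19, mfm3 and mug137. It lay before 4.35% of the other silent genes and 1.60% of all rows. Neither inv1 nor gld1, the chosen genes of the glucose-repressed list, had it. GAANNTTC, the heat shock element, lay before 7.32%, 9.24% and 9.39%. TGACGT, the element of the stress factor Atf1, was before 0 of the 41, before 8.70% of the other silent genes and before 4.57% of all coding rows. A match of letters is not a bound site, and no match says only that the letters are absent from the window. The sense RNA of mei4, which was too low in spt6-1 to be among the 41, was at 0.335 and 0.296 RPKM in WT and 2.26 and 2.36 RPKM in spt6-1.

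Sense RNA of the 41 genes had a median of 1.63 and 1.73 RPKM in the WT libraries and 9.47 and 8.54 RPKM in the spt6-1 libraries. The ratio of means ran from 2.24 in mug2, a gene named for its induction in meiosis, to 61.8 in cta3 among the 39 genes with more than 3 sense reads in each WT library. It was 10 or more in 15 of these, from 5 to under 10 in 7 and under 5 in 17. The levels reached were mostly low: 24 of the 41 had a spt6-1 mean under 10 RPKM, and 5 exceeded the spt6-1 mean of the median internal coding gene, 28.6 RPKM. Replicate 1 of spt6-1 was above replicate 2 in 25 of the 41, and the 2 differed by at least 2 times in 4 genes, cta3, gld1, mag2 and SPAC3G9.11c.

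**Figure D1:**
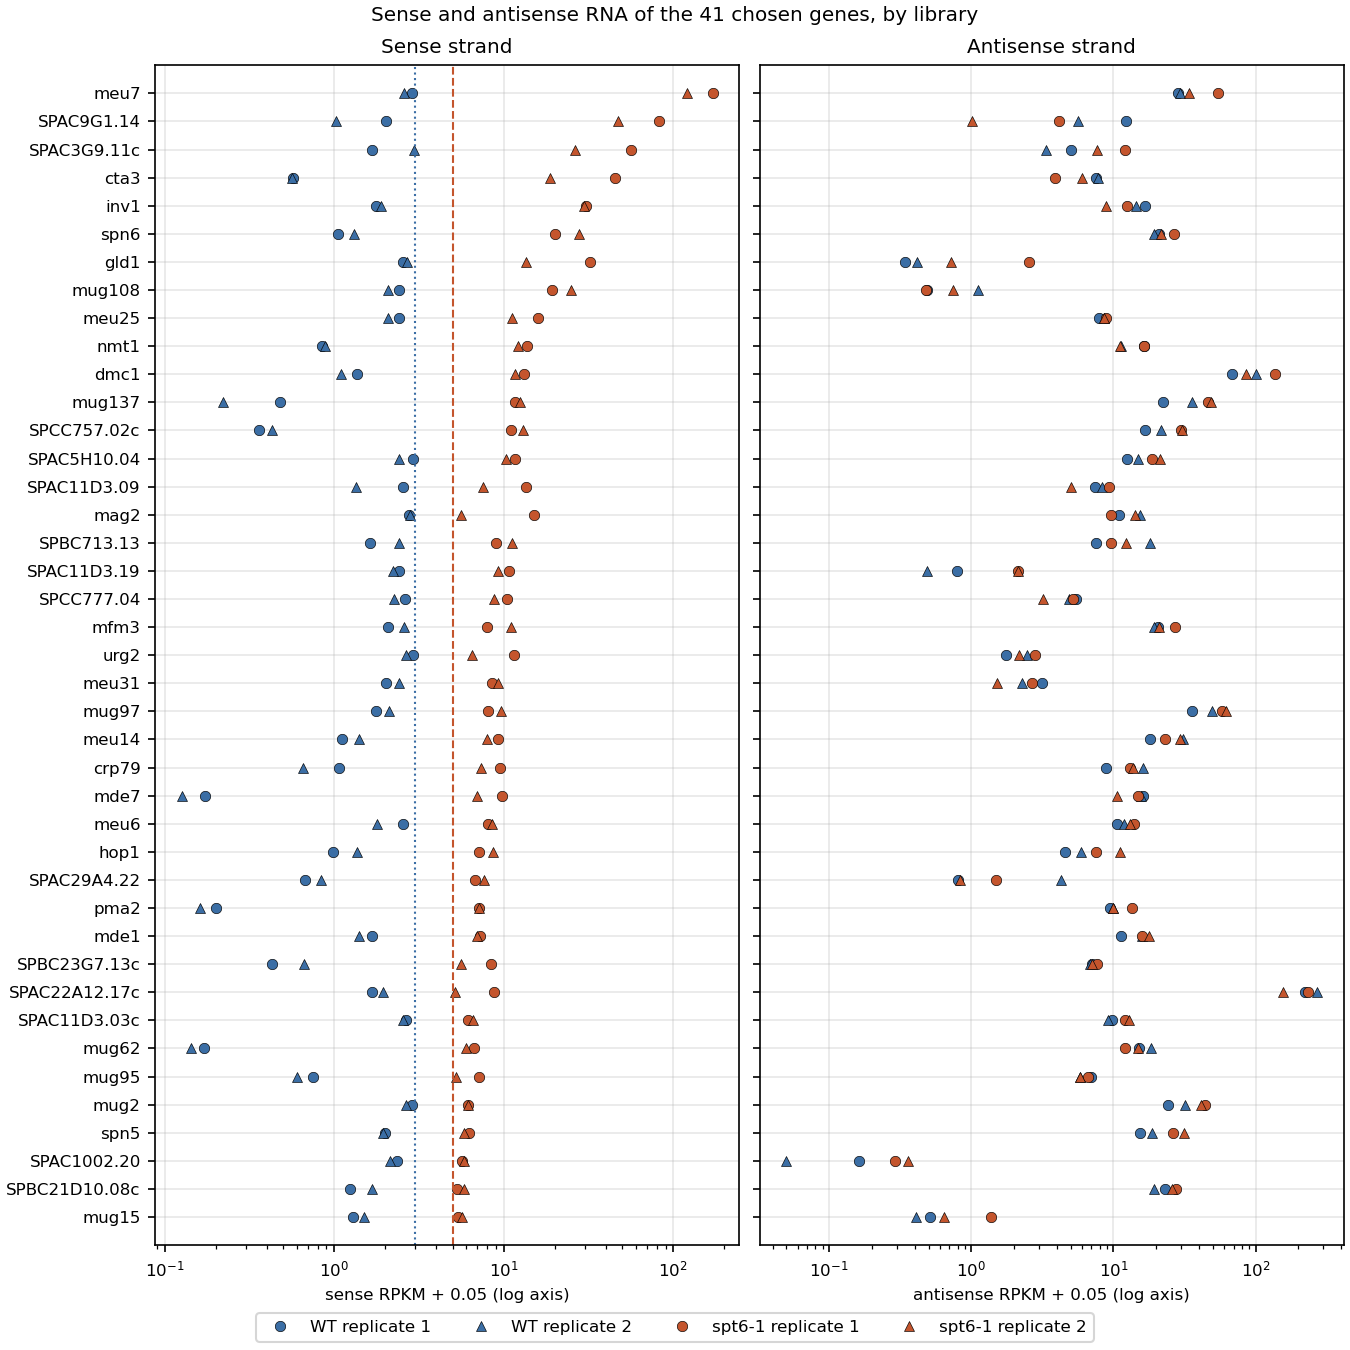
Sense RPKM (left) and antisense RPKM (right) of the 41 genes in each of the 4 libraries, on log axes with 0.05 added, ordered by mean sense level in spt6-1. The dotted line marks 3 RPKM and the dashed line 5 RPKM, the thresholds of the rule, so the sense groups cannot overlap; the antisense values of WT (blue) and spt6-1 (red) overlap in 18 rows.

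Among the genes of meiosis, meu7 stood highest (SPBC16A3.13, chromosome II, 4272341 to 4274665, minus strand). It encodes an alpha-amylase, an enzyme that cuts starch-like glucans. Its sense level was 2.83 and 2.53 RPKM in WT against 171 and 121 RPKM in spt6-1, a ratio of 54.4. Both spt6-1 values lie far above the median internal gene. The gene dmc1 (SPAC8E11.03c, chromosome I, 3382274 to 3383404, plus strand) encodes the meiosis-specific RecA-like recombinase that pairs homologous DNA strands. It had 1.32 and 1.04 RPKM in WT and 13.0 and 11.6 RPKM in spt6-1. hop1 encodes a protein of the linear elements on which meiotic chromosomes pair, and its level was 0.930 and 1.32 RPKM in WT against 7.07 and 8.54 RPKM in spt6-1. In both spt6-1 libraries dmc1 thus lay above the median of the 41 genes, and hop1 at or below it.

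From spore formation 2 genes were chosen. meu14 (chromosome II, 4066294 to 4067457, plus strand) is needed for the leading edge of the membrane that encloses each spore. Its sense level was 1.07 and 1.35 RPKM in WT against 9.16 and 7.89 RPKM in spt6-1. The other, meu31, had 1.96 and 2.36 RPKM in WT and 8.49 and 9.23 RPKM in spt6-1. The septins, filament proteins that bind the membrane, include forms made in sporulation, Spn5 and Spn6. spn6 (SPCC188.12, chromosome III, 1504862 to 1506851, plus strand) had 0.996 and 1.27 RPKM in WT against 20.1 and 27.6 RPKM in spt6-1. spn5 had 1.94 and 1.90 RPKM in WT against 6.20 and 5.77 RPKM in spt6-1. The septins thus differed in the size of the change, with ratios of means of 21.1 and 3.12.

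Genes of RNA binding and of mating were few. crp79, which encodes a poly(A)-binding protein, had 1.01 and 0.603 RPKM in WT and 9.47 and 7.28 RPKM in spt6-1. mde7, which encodes another RNA-binding protein, had 10 and 3 sense reads in WT, or 0.122 and 0.0763 RPKM, and 9.75 and 6.89 RPKM in spt6-1. With so few WT reads no fold is given for it. mfm3 encodes a precursor of M-factor, the pheromone secreted by M cells, and is short, so its values rest on 15 to 76 reads. It had 2.03 and 2.54 RPKM in WT and 7.91 and 11.0 RPKM in spt6-1.

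Other genes with meiotic symbols covered a wide range. mug137, which encodes a BAR adaptor protein, a type that binds curved membrane, had 0.430 and 0.171 RPKM in WT and 11.6 and 12.4 RPKM in spt6-1. mug62, annotated as a putative AMP-binding enzyme, had 0.121 and 0.0933 RPKM in WT and 6.61 and 5.95 RPKM in spt6-1. In WT both rested on 4 to 21 sense reads a library, so their ratios of means, 39.8 and 58.5, depend on small counts. mug108 reached 19.2 and 24.9 RPKM and meu25 15.9 and 11.1 RPKM in spt6-1, from WT levels of 2.03 to 2.37 RPKM in both genes. meu6, which encodes a protein with a pleckstrin homology domain, reached 8.03 and 8.44 RPKM from 2.50 and 1.73 RPKM.

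Other chosen genes encode enzymes of carbon and vitamin metabolism. inv1 (SPCC191.11, chromosome III, 1723393 to 1726164, plus strand) encodes the invertase that splits sucrose outside the cell and is repressed by glucose. Its sense level was 1.71 and 1.85 RPKM in WT against 30.4 and 29.7 RPKM in spt6-1, and the spt6-1 replicates nearly coincided. gld1, for a glycerol dehydrogenase that feeds glycerol into central metabolism, had 2.50 and 2.63 RPKM in WT and 32.3 and 13.4 RPKM in spt6-1. SPAC3G9.11c, annotated as a pyruvate decarboxylase, had 1.62 and 2.89 RPKM in WT and 56.0 and 26.2 RPKM in spt6-1. In both gld1 and SPAC3G9.11c replicate 1 of spt6-1 was more than 2 times replicate 2. nmt1 (SPCC1223.02, chromosome III, 1838335 to 1839525, plus strand) makes the pyrimidine part of thiamine and is shut off by thiamine in the medium. It had 0.795 and 0.830 RPKM in WT and 13.6 and 12.1 RPKM in spt6-1.

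Ion pumps and carriers were also present. cta3 (SPBC839.06, chromosome II, 607214 to 611989, plus strand) encodes a P-type ATPase annotated as a calcium transporter and is a known gene of the stress response to salt. Its sense level was 0.519 and 0.511 RPKM in WT against 45.0 and 18.6 RPKM in spt6-1. pma2, the second gene for a plasma membrane proton ATPase, had 0.152 and 0.112 RPKM in WT and 7.08 and 7.14 RPKM in spt6-1. The pumps thus started from near 0 and reached quite different levels. SPBC23G7.13c, annotated as a urea transporter, had 0.379 and 0.618 RPKM in WT and 8.40 and 5.51 RPKM in spt6-1. SPCC777.04, annotated as the amino acid transporter Dip5, had 2.57 and 2.20 RPKM in WT and 10.4 and 8.73 RPKM in spt6-1.

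Of the other enzymes, mag2, a DNA glycosylase that removes alkylated bases, had 2.72 and 2.76 RPKM in WT and 15.1 and 5.58 RPKM in spt6-1. SPAC11D3.09, annotated as an agmatinase, had 2.50 and 1.30 RPKM in WT and 13.5 and 7.47 RPKM in spt6-1. SPCC757.02c, annotated as an epimerase, had 0.311 and 0.379 RPKM in WT and 11.0 and 12.9 RPKM in spt6-1. The epimerase gene was near 0 in WT and had close replicates, whereas the spt6-1 replicates of the other two were spread. SPAC5H10.04, annotated as an NADPH dehydrogenase, had 2.86 and 2.36 RPKM in WT and 11.5 and 10.2 RPKM in spt6-1. urg2, annotated as a putative uracil phosphoribosyltransferase, which would recover uracil, had 2.86 and 2.60 RPKM in WT and 11.5 and 6.47 RPKM in spt6-1. SPAC9G1.14, with no known function, had the highest level after meu7, at 1.98 and 0.969 RPKM in WT and 82.2 and 47.3 RPKM in spt6-1. SPBC713.13, for which the reference annotation gave no protein product, reached 8.91 and 11.1 RPKM in spt6-1. SPAC11D3.19, annotated as an uncharacterized protein, reached 10.6 and 9.18 RPKM. The chosen genes without a sense value in these paragraphs had spt6-1 levels between 5.10 and 9.58 RPKM.

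Gene lists put these names in context. Of all 236 silent internal genes 17.4% were chosen. Of the other 195, 77 (39.5%) were also at least 2 times the higher WT value in both spt6-1 libraries. Of 23 matched genes of meiotic recombination and pairing, 18 were silent internal genes in WT, 9 were at least 2 times the higher WT value in both spt6-1 libraries and 2 were chosen, dmc1 and hop1. Of 16 genes of meiotic entry and progression 10 were silent internal genes, 6 met the ratio and 0 were chosen, because their levels in spt6-1 stayed under 5 RPKM in at least one library. One of them, cuf2, a regulator of middle meiosis genes, had 0.0521 and 0.109 RPKM in WT and 4.68 and 4.88 RPKM in spt6-1. Spore formation gave 5 silent internal genes of 24 matched and 2 chosen. Both silent septins of 7, both silent genes of 17 in the glucose-repressed list, the one in 11 genes of the phosphate and thiamine list and the one in 14 of the core stress list were chosen. Of 23 mating genes 5 were silent and 1 was chosen. None of 16 iron genes and none of the 15 genes matched of 18 listed for nitrogen and amino acid uptake was a silent internal gene. That list does not hold SPCC777.04 or SPBC23G7.13c, the amino acid and urea transporter genes described above. Of 143 genes with mug, meu or mde symbols 52 were silent internal genes and 14 were chosen, or 26.9% of the 52. No difference between a list and all silent internal genes was tested. The lists were made with earlier results of these data known, and their counts rest on the values that chose the genes.

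The thresholds cut through a continuous range. Just inside lay SPAC22A12.17c, annotated as a dehydrogenase, with a lower spt6-1 value of 5.10 RPKM, then mug95 at 5.19 and SPBC21D10.08c at 5.27. Just outside lay SPCC794.01c at 4.97, mug150 at 4.84 and cuf2 at 4.68 RPKM. On the WT side SPAC3G9.11c at 2.89 RPKM and both SPAC5H10.04 and urg2 at 2.86 were the highest inside, and spo6 at 3.03, mug14 at 3.06 and SPBC17D1.07c at 3.07 the lowest outside. mug14 had 64.0 and 43.4 RPKM in spt6-1, levels that only meu7 and SPAC9G1.14 among the chosen genes exceeded in both libraries. The lowest ratios of the lower spt6-1 to the higher WT value inside were 2.02 in mag2, 2.14 in mug2 and 2.26 in urg2. Among the 195 other silent internal genes 77 were also at least 2 times the higher WT value in both spt6-1 libraries but under 5 RPKM in one or both, and 118 were not. Over all 5009 internal genes, 236 (4.71%) met the ratio. Nearer than 100 kb to the ends of chromosomes I and II, where the rule does not look, 40 of 56 silent genes (71.4%) met the same thresholds.

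The word silent holds for the sense strand only. Antisense RNA lay above sense RNA in both WT libraries in 34 of the 41 genes. Taken by single WT library, the share was 85.4% and 82.9% of the 41. It was 65.1% and 63.6% of the other silent internal genes and 9.38% and 9.10% of all internal genes. The rule keeps WT sense under 3 RPKM, so this excess of antisense is in part fixed by the choice. The antisense median of the 41 was 10.6 and 11.7 RPKM in WT and 12.1 and 11.1 RPKM in spt6-1. The medians of the other silent internal genes were 2.07 and 1.84 RPKM in WT and 3.41 and 3.02 RPKM in spt6-1. Those of all internal coding genes were 0.507 and 0.473 RPKM in WT and 3.96 and 3.43 RPKM in spt6-1. At 5 RPKM of antisense or more were 31 of the 41 in each WT library, and 31 and 30 in the spt6-1 libraries. The median of the 41 thus lay between 10.6 and 12.1 RPKM in all 4 libraries, while that of internal genes as a whole was higher in both spt6-1 libraries. These levels describe the libraries that made the choice and carry no test.

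**Figure D2:**
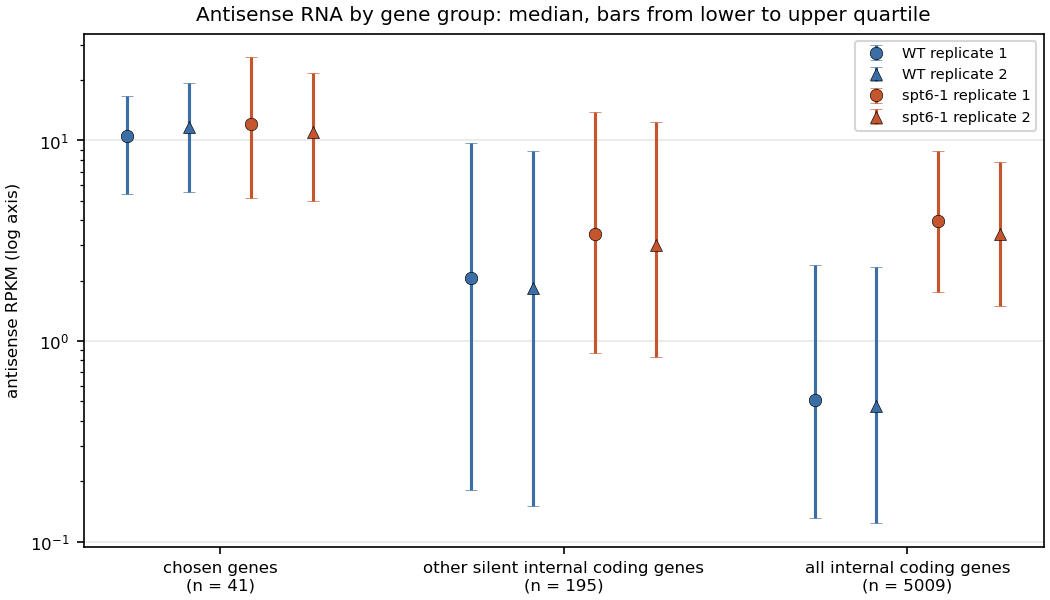
Antisense RPKM (log axis) in each library for the 41 chosen genes, the 195 other silent internal genes and all 5009 internal coding genes. Points are medians and bars run from the lower to the upper quartile over genes; the medians of the chosen genes lie between 10.6 and 12.1 in all 4 libraries, whereas those of all internal genes go from 0.507 and 0.473 to 3.96 and 3.43.

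The sense share of a gene uses the sense values that chose it, so its increase was largely fixed by the rule and is given as a description. The share of sense in sense plus antisense RPKM had a median over the 41 genes of 11.2% and 11.4% in WT and 48.1% and 44.1% in spt6-1. For all internal genes it was 98.3% and 98.4% in WT against 87.5% and 88.7% in spt6-1. In 9 genes antisense was the larger in both WT libraries and sense the larger in both spt6-1 libraries: meu7, SPAC9G1.14, SPAC3G9.11c, cta3, inv1, meu25, SPAC11D3.09, SPCC777.04 and SPAC29A4.22. In 20 genes antisense stayed the larger in all 4 libraries, among them dmc1, with antisense values of 68.6 and 99.8 RPKM in WT and of 136 and 85.8 RPKM in spt6-1. In 6 genes sense was the larger in both WT libraries already.

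**Figure D3:**
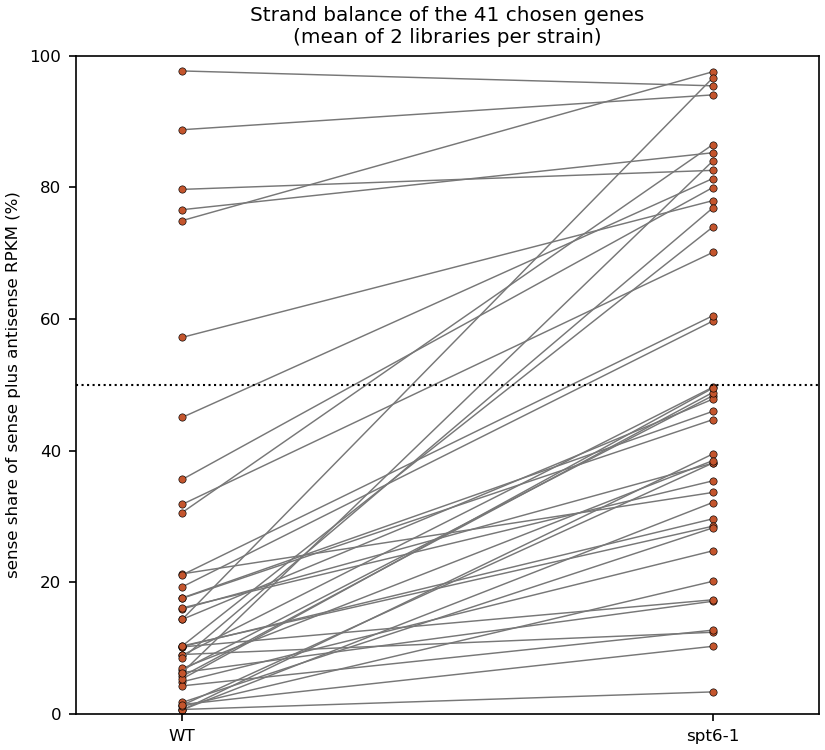
Share of sense in sense plus antisense RPKM (percent, mean of 2 libraries per strain) for each of the 41 genes, with a line joining WT and spt6-1. Nearly all lines go up, and those that cross the dotted line at 50% are genes whose larger strand changed by the mean share. One of them, meu31, did not change in every library, since its sense share was 51.5% in WT replicate 2.

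Antisense RNA was compared over all 5117 coding rows with an antisense read, with limma on log2(RPKM + 0.5). Of the 41 genes 11 (26.8%) were called higher in spt6-1, where 80.6% of all coding rows were, and 2 (4.88%) were called lower, where 1.52% of all rows were. The other 28 passed in neither direction. The samples and the contrast are those that chose the genes, and nothing further is read from these shares. The median antisense log2 difference was 0.25 in the chosen genes, 0.49 in the 181 other silent internal genes tested and 1.48 in all 5117 rows tested. Both spt6-1 libraries lay above both WT libraries in 18 of the 41, against 86.5% of all rows, and below them in 5, against 3.65%. These counts depend on the scale. Median-ratio scaling and quantile normalization were fitted to the antisense values alone, so by construction they move the typical coding row to near 0. A gene called lower under them is lower relative to that row, and not necessarily in RPKM. A median-ratio scaling brought the median of all rows from 1.48 to 0.12 and called 0 of the 41 higher, also at an unadjusted p under 0.05, and 38 lower. Quantile normalization brought it to -0.09 and called 0 higher, also unadjusted, and 24 lower, and over all rows these scalings gave 1911 higher with 1682 lower and 1354 higher with 1538 lower. The count of higher genes fell to 5 without WT replicate 1, to 4 without spt6-1 replicate 1 and to 5 without spt6-1 replicate 2. The count of lower genes fell to 1 without WT replicate 2 and to 1 without spt6-1 replicate 2, and was 3 without WT replicate 1.

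The 11 genes called higher had antisense folds of 1.40 to 2.39. The largest log2 differences were 1.26 ± 0.22 (SE) in SPAC11D3.19, 1.18 ± 0.38 in gld1 and 1.14 ± 0.27 in SPAC3G9.11c. SPAC11D3.19 had 0.739 and 0.435 antisense RPKM in WT and 2.07 and 2.09 RPKM in spt6-1, and gld1 0.289 and 0.362 in WT and 2.48 and 0.673 in spt6-1. These were among the genes with little antisense RNA in WT. hop1 came next at 0.76 ± 0.24 and mug137 at 0.74 ± 0.26, with 22.2 and 35.4 antisense RPKM of mug137 in WT and 46.4 and 48.2 in spt6-1. All 5 were negative under median-ratio scaling and all but mug137 under quantile normalization. With 1 library left out all 5 stayed positive, with the lowest value, 0.41, in mug137. In these fits SPAC3G9.11c, hop1 and mug137 were not called each time.

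The 2 genes called lower were SPAC9G1.14 and cta3. SPAC9G1.14 had 12.3 and 5.55 antisense RPKM in WT and 4.11 and 0.965 RPKM in spt6-1, a log2 difference of -1.76 ± 0.53. cta3 had 7.50 and 7.79 RPKM in WT and 3.81 and 5.94 RPKM in spt6-1, a difference of -0.63 ± 0.23. In both genes every spt6-1 library was under every WT library. With 1 library left out, the difference ranged from -2.59 to -0.93 in SPAC9G1.14 and from -0.92 to -0.34 in cta3. Neither gene was called in every one of these fits, and which genes were called lower changed between them. Of the 41 genes 15 were below 0. Of those not called the lowest were SPAC29A4.22 at -0.62 ± 0.54, inv1 at -0.53 ± 0.22 and SPAC22A12.17c at -0.36 ± 0.31. In inv1 antisense was 16.7 and 14.3 RPKM in WT and 12.5 and 8.86 RPKM in spt6-1, again with no overlap. meu7, the highest sense RNA, had 28.3 and 29.6 antisense RPKM in WT and 54.5 and 34.2 RPKM in spt6-1 and was not called. For spn6 and nmt1 antisense differed little: 21.0 and 19.3 RPKM in WT with 26.7 and 21.7 RPKM in spt6-1 for spn6, and 16.2 and 11.3 RPKM with 16.3 and 11.0 RPKM for nmt1.

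**Figure D4:**
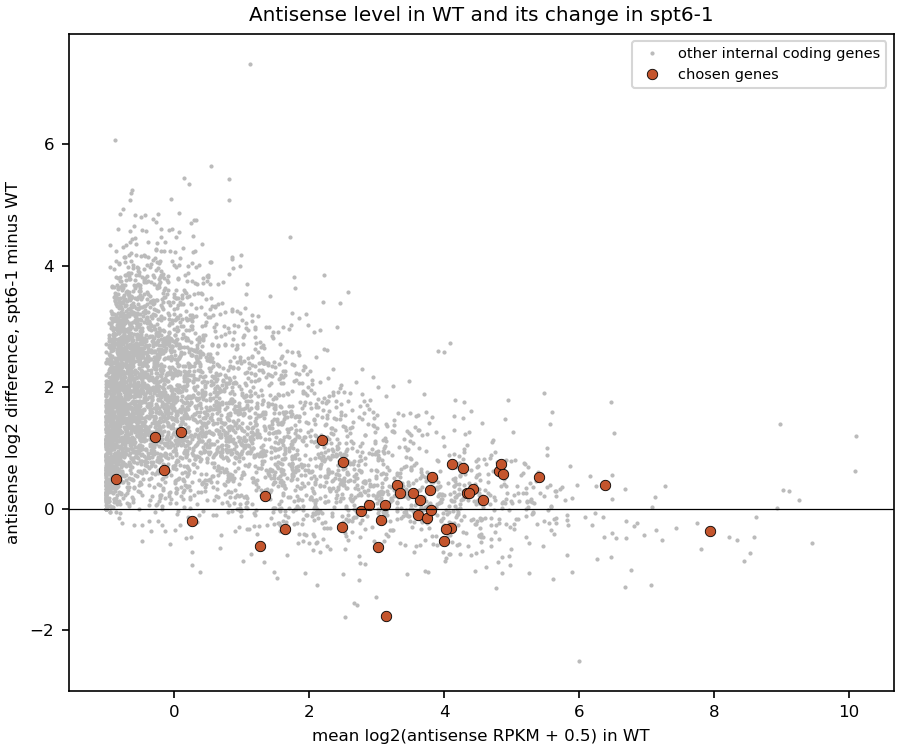
Antisense log2 difference between spt6-1 and WT (vertical) against the mean antisense level in WT, as log2(RPKM + 0.5) (horizontal), for the 41 chosen genes (red) and the other internal coding genes (grey). The chosen genes lie between -1.76 and 1.26 on the vertical axis, mostly at high WT antisense, where many grey points also lie close to 0.

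Most of the chosen genes lie opposite another annotated row. An annotated row on the opposite strand overlapped 36 of the 41 genes (87.8%), against 63.6% of the other silent internal genes and 58.8% of all internal genes. Such rows covered at least 50% of the gene in 30 of the 41 (73.2%), in 45.6% and in 23.6%. The overlapping row was a coding gene over at least 50% in 14 genes, with median antisense levels of 15.2 and 17.0 RPKM in WT. It was a non-coding RNA in 16 genes, with 9.25 and 13.4 RPKM. In the other 11 genes the medians were 4.99 and 3.29 RPKM. The median sense ratio of means was 7.81, 6.53 and 8.92 in these classes. Only 5 genes had no opposite row at all, with antisense medians of 1.70 and 2.42 RPKM in WT and 2.77 and 2.11 RPKM in spt6-1.

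Where 2 coding genes overlap, the sense reads of the one are antisense reads of the other and the RPKM of a whole gene does not say which transcript they belong to. spn6 lies to 95.6% within the locus of dcr1, the Dicer ribonuclease gene of the RNAi pathway. Antisense RNA of dcr1 stood at 0.406 and 0.475 RPKM in WT and at 9.78 and 12.2 RPKM in spt6-1, in part the same reads as those of spn6. meu6 lies wholly opposite clr4, the gene of the histone H3 lysine 9 methyltransferase, with antisense values of 1.50 and 1.07 RPKM in WT and of 6.19 and 6.13 RPKM in spt6-1. mug62 lies wholly opposite alp41, spn5 opposite otu1, mde7 opposite SPCC320.06 and SPCC757.02c opposite nic1. For these genes sense RNA of the chosen gene and antisense RNA of its partner cannot be told apart. On the same strand 9 genes overlapped a coding row, among them mug108 and SPAC29A4.22, both chosen, which share 60 bases. Nor can a value over a whole gene tell a full-length mRNA from RNA that starts inside the gene.

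Neighbouring genes were read from a sense fit over all rows, in which 11.1% of 5118 coding rows were called higher in spt6-1 and 6.86% lower. Not all of these neighbours are separate from the chosen gene: 19 of 39 downstream and 2 of 40 upstream overlap it. Where an overlapping neighbour is on the opposite strand, its sense reads are in part antisense reads of the chosen gene. One such neighbour, otu1, was called higher and covers all of spn5. Of 40 upstream neighbours 5 (12.5%) were called higher and 7 (17.5%) lower. Of 39 downstream neighbours 2 (5.13%) were called higher and 0 lower by limma. At an unadjusted p under 0.05 limma gave 0 lower, limma after quantile normalization 5, after median-ratio scaling 3 and voom 3; after adjustment quantile normalization called 1 lower and the others 0. The share of upstream neighbours called higher, 12.5%, thus lay near the 11.1% of all coding rows, and the downstream share, 5.13%, below it. The share of upstream neighbours called lower, 17.5%, lay above the 6.86% of all coding rows. These differences in share were not tested. All 5 upstream neighbours called higher were on the other strand from the chosen gene, and of 14 on the same strand 0 were higher and 5 lower. No share over all coding rows matched to this split by strand was taken. Among neighbours called higher the largest rises were in rdh54, a recombination gene next to mug62, in SPAC1002.16c after urg2 and in SPBC23G7.10c before mag2. rdh54 had 3.78 and 3.03 RPKM in WT and 10.9 and 10.4 RPKM in spt6-1, a log2 difference of 1.52 (limma, Benjamini-Hochberg adjusted p = 0.00388). SPAC1002.16c rose by 1.36 (limma, adjusted p = 0.0172) and SPBC23G7.10c by 1.10 (limma, adjusted p = 0.0495). SPAC11D3.01c, downstream of SPAC11D3.19, had a difference of 1.30 and was not called (limma, adjusted p = 0.249). The neighbour that fell furthest was SPBC16A3.12c, upstream of meu7 on the other strand. It was chosen after its values were seen: 32.2 and 33.1 RPKM in WT and 11.3 and 14.2 RPKM in spt6-1, a log2 difference of -1.33 (limma, adjusted p = 0.00597).

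The neighbour counts depend on single libraries. Upstream neighbours called higher numbered 1 without WT replicate 1, 2 without WT replicate 2 and 0 without either spt6-1 library. Those called lower numbered 1 without either WT library and 0 without either spt6-1 library. At an unadjusted p under 0.05, limma without spt6-1 replicate 1 gave 5 upstream neighbours higher and 9 lower, and without spt6-1 replicate 2 it gave 9 and 6. Downstream neighbours called higher numbered 0 without WT replicate 1 and 0 without either spt6-1 library. Over all coding rows the counts fell to between 86 and 288 higher and between 3 and 66 lower when 1 library was left out, and median-ratio scaling gave 599 lower in place of 351. Non-coding rows that overlap a chosen gene share reads with it only where they overlap. On the same strand SPNCRNA.319 covers 3.81% of cta3 and SPNCRNA.1224 covers 2.42% of inv1, and both rows, which lie mostly outside these genes, were called higher. On the opposite strand 2 of 20 were called higher, SPNCRNA.1447 opposite meu25 and SPNCRNA.801 opposite gld1. The background shares above are of coding rows, and none was taken over non-coding rows. Whether these counts are unusual therefore cannot be said.

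**Figure D5:**
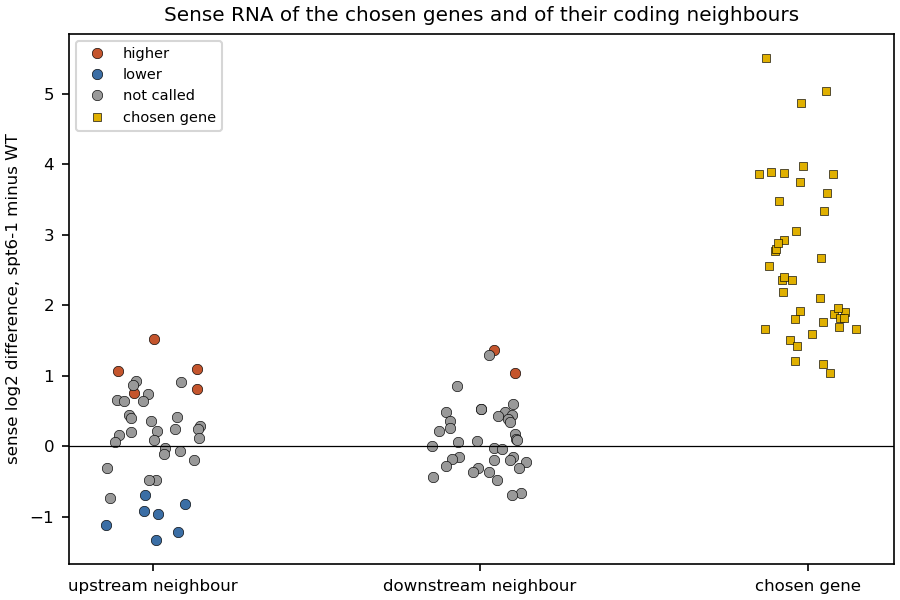
Sense log2 difference between spt6-1 and WT, on log2(RPKM + 0.5), for the nearest upstream and downstream coding neighbours and for the chosen genes. The neighbour overlaps the chosen gene in 19 of 39 downstream and 2 of 40 upstream cases. Red points were called higher and blue points lower by limma; the chosen genes (yellow) have no call because their sense values chose them, and their neighbours scatter around 0, with medians of 0.20 upstream and 0.07 downstream.

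By position the genes spread over the genome, with 20 on chromosome I, 13 on chromosome II and 8 on chromosome III, or 48.8%, 31.7% and 19.5% against 45.3%, 36.1% and 18.3% of internal genes. The rule sets no limit on chromosome III, and SPCC757.02c (44814 to 46961) lies less than 100 kb from its left end. SPAC11D3.19, SPAC11D3.03c and SPAC11D3.09, which lie 2542 and 9687 bases apart, are less than 150 kb from the left end of chromosome I. mag2 and SPBC23G7.13c are 2036 bases apart, in the stretch between the mat1 and mat3 rows of the mating-type region on chromosome II. SPAC1002.20 and urg2 lie 5978 bases apart. Genes this close may not be independent of each other, which was not tested. The 41 genes had a median summed exon length of 1650 bases against 1185 in the other silent internal genes and 1809 in all internal genes, and 25 (61.0%) had no intron, against 63.1% and 50.4%. A near-identical stretch elsewhere in the genome, at least 30 bases at 90% identity, was found in 3 of them, SPAC3G9.11c, SPBC713.13 and inv1, over 1.85%, 5.14% and 1.70% of their exon length.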

How the data were processed

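The submitters' processing notes name TopHat and the build ASM294v2; of the counting step, the tool is not given in the sources used here. Values were deposited by the authors, as RPKM for each strand of 7023 rows. These give back whole reads when the exon length (sense) or the locus length (antisense) is used with one denominator per library: 100% of values came out whole within 0.01 read. From there, log2(RPKM + 0.5) was tested with limma 3.58.1 in R 4.3.3 (eBayes with trend, two-sided, Benjamini-Hochberg, threshold 0.05) over every row above 0 in at least 1 library. Fold changes are on that scale and understate low genes; ratios of means are of RPKM. The test was tried on simulated data. The members, lists and tests were chosen with earlier results of these data known. Named are the 20 genes highest in spt6-1, list members, the 5 largest antisense rises and falls, 3 on either side of each threshold, the 3 largest rises among neighbours called higher, and spt6; mde7, pma2, crp79, mug62, meu6, SPBC23G7.13c, the overlap partners and mei4 illustrate a class and were added after their values were seen. Sequences are from RefSeq (ASM294v3), where 99.94% of 5123 coding rows have ATG at their first coding base. A RefSeq coding sequence was found for 40 of the 41 chosen genes, with the same first and last coding base in 38. A window was available for 184 of the other silent genes, and copies were sought with BLAST 2.17.0. No label pairs the replicates. The deposited splice junctions were not used.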

Additional observations from a re-analysis of the deposited data

How the results depend on the processing

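The rule chose 22 genes with WT under 2 RPKM and 14 with at least 10 RPKM in spt6-1. WT under 4, a ratio of 3, 50 kb or 200 kb from the ends, and another denominator gave 33 to 55. With 1 library left out it chose 44 to 56. That count could not fall below 41, since a library left out removes a condition of the rule. Antisense calls followed the scale. For these calls median ratio and quantile normalization were fitted to the antisense values alone, which sets the typical row near 0 by construction. Median-ratio scaling gave, as higher and lower, 1911 and 1682 over all coding rows in place of 4125 and 78, 0 and 38 of the chosen genes in place of 11 and 2, and 16 and 111 of the 181 other silent genes tested in place of 90 and 9. Quantile normalization gave 1354 and 1538, 0 and 24, and 17 and 88. Voom on recovered reads gave 134 lower over all rows, 6 higher and 4 lower chosen genes, and 14 lower other silent genes. Leaving out 1 library gave 3750 to 3896 higher and 33 to 65 lower over all rows, 4 to 10 and 1 to 3 of the chosen genes, and 67 to 78 and 6 to 7 of the other silent genes. In the sense fit all coding rows called higher went from 566 to 339 with quantile normalization, and those called lower from 351 to 599 with median ratio, 750 with quantile normalization and 569 with voom. Upstream neighbours called higher went from 5 to 3 with median ratio and to 3 with quantile normalization, and lower from 7 to 4 without the trend. Downstream neighbours went from 2 to 1 higher and from 0 to 1 lower with quantile normalization. Leaving out 1 library gave 86 to 288 higher and 3 to 66 lower over all rows, 0 to 2 and 0 to 1 upstream, and 0 to 2 and 0 to 0 downstream. The antisense log2 differences that changed sign under median ratio and quantile normalization were those of SPAC11D3.19 (-0.36 and -0.74), gld1 (-0.16 and -0.66), SPAC3G9.11c (-1.06 and -0.30) and hop1 (-1.45 and -0.64), with mug137 at -1.61 under median ratio only. SPAC29A4.22 went from -0.62 to 0.34 without WT replicate 2, within a range of -1.57 to 0.34. The cause of these differences was not tested. The replicate numbers are shared as numbers only; deviations of same-numbered libraries correlated at 0.24 on the sense and 0.19 on the antisense strand, over 2 pairs. With the replicate block the antisense calls were 14 higher and 3 lower among the chosen genes and 4221 and 110 over all rows, and the upstream neighbours 7 and 8. The quasi-likelihood count test that had been planned was not run, since the deposited unit is RPKM. With 2 libraries a strain, and WT sense values resting on as few as 3 reads, small differences between the chosen genes were not detectable.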
